A study of Mus musculus with 8 samples.

Results

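The 43 genes described here carry the names of subunits of the last steps of mitochondrial respiration, namely complex III, cytochrome c, complex IV and the ATP synthase, and a few of them (Cox7a2l, Atp5s and Atp5sl) encode related proteins rather than subunits. They were chosen by name from 4 lists of genomic sites bound by the nuclear receptor ERRα. A gene was taken if its symbol began with Uqcr, with Cox and a digit from 4 to 8, or with Atp5, or was Cyc1 or Cycs, and if at least 1 peak annotated to it by nearest start site lay within 20000 bp of that start site (TSS) in any list. This gave 43 of the 16988 genes with such a peak. A further matching name, Cox7b2, had peaks only beyond that distance. The 43 genes carried 53 peaks in WT muscle, 72 in 3SA muscle, 46 in WT liver and 54 in 3SA liver, of 12999, 23571, 11216 and 16104 peaks within 20000 bp in those lists.

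Within a study of exercise endurance, these lists addressed where ERRα sits on chromatin when it cannot be phosphorylated at serines of its amino-terminal domain. The paper also reports that ERRα with these serines mutated is stabilized in skeletal muscle, so its amount differs from WT along with its phosphorylation. ChIP-seq (immunoprecipitation of crosslinked chromatin followed by sequencing) with an antibody to ERRα was done on male C57BL/6N mice aged 2 to 3 months, which were WT or carried the ERRα 3SA phospho-mutant and were killed at zeitgeber time 9 (hours after lights on). Muscle was gastrocnemius and soleus pooled from 5 mice per genotype, and liver was pooled from 2 mice per genotype. According to the labels 3 immunoprecipitations were pooled into each library. The paper's methods give a different number, and the labels were followed. The WT mice were littermates of the mutants, and a pooled library holds no measure of how the animals in it differ.

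Each combination of genotype and tissue was 1 library and 1 peak list, so no comparison has a replicate, no test was possible, and differences between lists cannot be told apart from differences between libraries. Depth is unknown, as the lists hold no read counts, and Wilson 95% intervals given below cover counting error over genes or peaks only. The lists held 25427 peaks (WT muscle), 50647 (3SA muscle), 21813 (WT liver) and 29040 (3SA liver). Scores were not compared between lists. Each peak was ranked by score within its own list, rank 1 being the highest, with tied scores given the best rank of the tie. In the muscle lists many peaks shared the lowest score of 30, namely 8534 in WT and 17824 in 3SA, against 15 and 134 in liver. Of 10 muscle marker genes, 8 and 9 were bound in the WT and 3SA muscle lists and 5 and 6 in the WT and 3SA liver lists. Of 10 liver marker genes, 2 and 4 were bound in the muscle lists and 5 and 7 in the liver lists. Over all 16988 genes with a peak, 51.0% and 71.7% were bound in WT and 3SA muscle, and 44.2% and 55.6% in WT and 3SA liver. A peak among the 1000 best ranks was found for 4 muscle markers in each muscle list and 0 in each liver list. For the liver markers it was 0 in every list. These marker lists are short, and the counts were not tested. Alb and Fgb, both liver markers, were named in no list, and binding near a gene is not its expression.

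Complex III takes electrons from ubiquinol and passes them to cytochrome c, a small soluble carrier in the intermembrane space, and complex IV hands them on to oxygen. Both complexes pump protons, and the ATP synthase lets the protons return through its c-ring and turns that flow into ATP. ERRα is an orphan nuclear receptor that binds a short element, the ERRE, and with coactivators of the PGC-1 family drives genes of oxidative metabolism in muscle, heart, brown fat and liver. Several complex IV subunits exist as pairs of isoforms, 1 abundant in heart and skeletal muscle and 1 in liver and most other tissues.

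The sequences below are shown because they carry 5 of the 6 exact ERREs that peaks of these genes covered in all 4 lists. All are from GRCm38.p6, the assembly of mm10, written 5′ to 3′ on the strand of the gene, and cut where an exon begins. Capitals mark the ERRE, which reads TCAAGGTCA on 1 strand and TGACCTTGA on the other. The first lies in intron 1 of Atp5b, at chr10:128083454-128083624 on the plus strand, with its ERRE 193 bp downstream of the RefSeq start. The second lies upstream of Atp5g3 at chr2:73911327-73911498 on the minus strand, with the ERRE 48 bp before the start. The third lies in intron 1 of Atp5j2 at chr5:145190861-145191109 on the minus strand, with the ERRE 556 bp past the start. Atp5o, on the minus strand, holds the rest, an intron 1 site 296 bp past the start (chr16:91931210-91931458) and an upstream site 4843 bp before it (chr16:91936349-91936597). Covered here means anywhere in a peak. The Atp5b and intron 1 Atp5o elements lay in the 300 bp around a peak centre in all 4 lists. The Atp5j2 element did so in 3 lists, the upstream Atp5o element in 1 and the Atp5g3 element in none.
Atp5b intron 1: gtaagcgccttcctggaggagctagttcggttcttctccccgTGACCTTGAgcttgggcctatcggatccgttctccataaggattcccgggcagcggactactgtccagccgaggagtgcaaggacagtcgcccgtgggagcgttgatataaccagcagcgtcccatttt
Atp5g3 upstream: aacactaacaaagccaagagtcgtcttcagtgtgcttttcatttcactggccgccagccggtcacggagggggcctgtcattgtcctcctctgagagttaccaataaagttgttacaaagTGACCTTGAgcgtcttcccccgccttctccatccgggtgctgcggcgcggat
Atp5j2 intron 1: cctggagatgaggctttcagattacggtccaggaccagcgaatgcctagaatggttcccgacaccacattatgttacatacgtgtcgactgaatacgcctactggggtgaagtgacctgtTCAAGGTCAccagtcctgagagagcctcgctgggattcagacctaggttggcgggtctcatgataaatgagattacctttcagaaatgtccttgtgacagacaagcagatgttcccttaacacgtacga
Atp5o intron 1: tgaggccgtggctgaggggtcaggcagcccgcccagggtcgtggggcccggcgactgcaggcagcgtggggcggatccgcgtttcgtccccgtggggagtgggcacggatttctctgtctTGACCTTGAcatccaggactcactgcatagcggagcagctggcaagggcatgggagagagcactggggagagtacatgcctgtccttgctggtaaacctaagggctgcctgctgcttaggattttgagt
Atp5o upstream: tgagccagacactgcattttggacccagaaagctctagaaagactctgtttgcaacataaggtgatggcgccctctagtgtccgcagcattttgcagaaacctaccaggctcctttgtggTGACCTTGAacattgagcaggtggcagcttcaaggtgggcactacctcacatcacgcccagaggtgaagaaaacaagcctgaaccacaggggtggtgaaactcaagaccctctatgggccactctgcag

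ERRα peaks lay near most genes of the 3 complexes in each list, and 31 of the 43 genes were bound in every list. In WT muscle 38 of the 43 genes were bound (88.4%, interval 75.5 to 94.9), where 51.0% of all 16988 genes were. In 3SA muscle 39 were bound (90.7%, 78.4 to 96.3), beside 71.7% of all genes. In WT liver 35 were bound (81.4%, 67.4 to 90.3), beside 44.2%, and in 3SA liver 39 (90.7%), beside 55.6%. The 31 genes bound in all 4 lists (72.1%, 57.3 to 83.2) stood beside 18.1% of all genes. The share of all genes lay below the interval of the 43 genes in each of these comparisons. With scores of at least 100 only, the WT muscle count was 23, given without the share of all genes at that cut. The 34 complex I subunit genes with a peak (symbols beginning Nduf, without the assembly factors Ndufaf) gave 29, 29, 27 and 30 bound genes in WT muscle, 3SA muscle, WT liver and 3SA liver, and 23 of them were bound in all 4 lists.

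Many of the peaks were among the strongest of their list. In WT muscle 22 genes had a peak among the top 1000 (51.2%, 36.7 to 65.4), where 3.68% of all genes had. In 3SA muscle there were 18 (41.9%, 28.4 to 56.7), beside 3.54%. WT liver had 16 (37.2%, 24.4 to 52.1), beside 3.76%, and 3SA liver had 15 (34.9%, 22.4 to 49.8), beside 3.57%. Among the top 500 the 3SA liver count was 9, given without the share of all genes at that cut. Of the 34 complex I genes, 9, 10, 8 and 8 had a peak among the top 1000 in the same order of lists. The median best rank of the bound genes was 604.5 in WT muscle, 1077 in 3SA muscle, 1165 in WT liver and 2061 in 3SA liver. Over all bound genes the median best rank was 9931, 11987, 8204 and 9882.

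**Figure D1:**
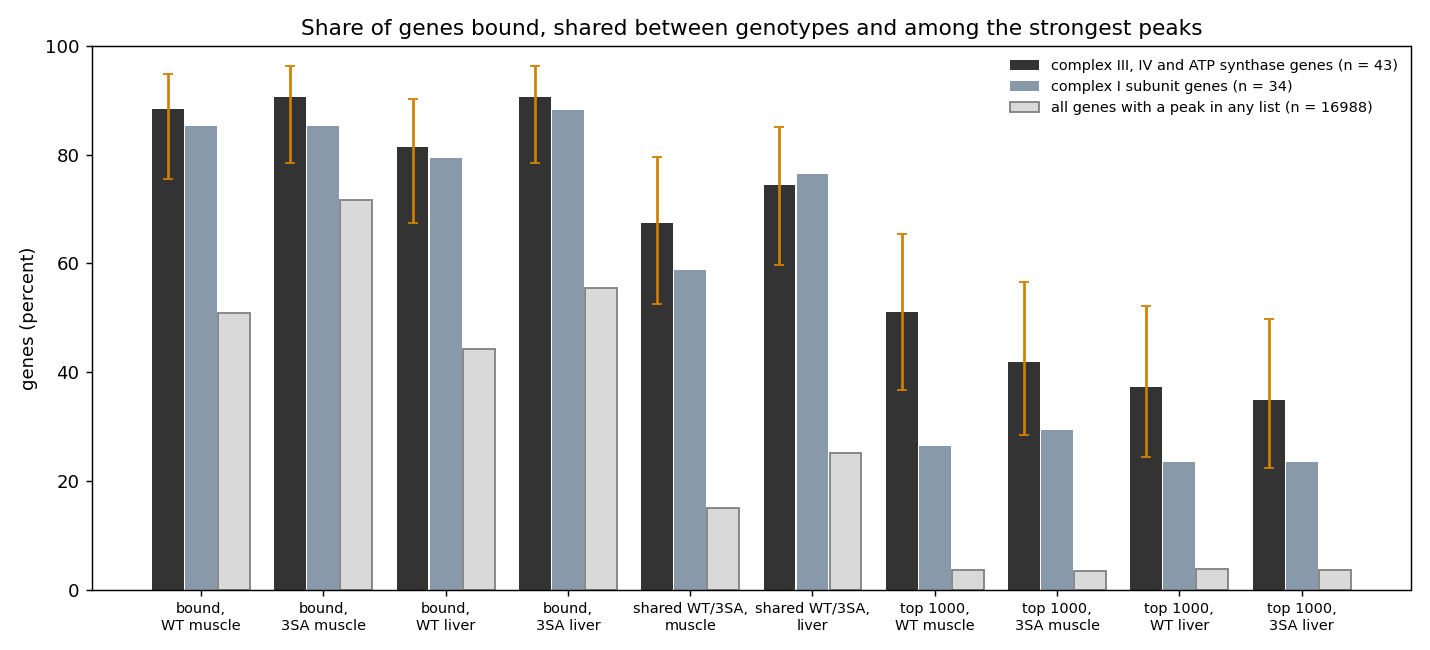
Bars give the percent of genes bound within 20000 bp, with a peak shared between WT and 3SA, and with a peak among the top 1000 of a list, for the 43 complex III, IV and ATP synthase genes, 34 complex I subunit genes and 16988 genes in all; error bars are Wilson 95% intervals over the 43 genes. The bars of the 43 genes stand above those of all genes in each of the 10 groups, from 88.4% against 51.0% bound in WT muscle to 34.9% against 3.57% in the top 1000 of 3SA liver.

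A peak among the top 1000 in all 4 lists was found for 12 of the 43 genes (27.9%, 16.7 to 42.7), beside 1.17% of all genes. They were Cyc1, Uqcr10 and Uqcrc1 of complex III, Cox5a, Cox7c and Cox8a of complex IV, and Atp5a1, Atp5b, Atp5c1, Atp5g3, Atp5j and Atp5o of the ATP synthase. Together 25 of the 43 genes reached the top 1000 in at least 1 list, a count given without a share of all genes to set it against.

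In complex III, Uqcr10, a small subunit beside cytochrome c1, had the best peak. Its best rank was 57 in WT muscle, 60 in 3SA muscle, 34 in WT liver and 38 in 3SA liver. Cyc1, which encodes the haem protein cytochrome c1, ranked 227 in WT muscle, 246 in 3SA muscle, 149 in WT liver and 130 in 3SA liver. Uqcrc1, a core subunit, ranked 120, 180, 153 and 120 in that order of lists. These 3 genes were among the strongest in both genotypes and both tissues.

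Uqcrc2, the other core subunit, ranked better in liver than in muscle, at 293 in WT liver and 487 in 3SA liver against 1481 in WT muscle and 1764 in 3SA muscle. Uqcrfs1, which encodes the Rieske iron-sulfur protein, showed the opposite order, with rank 430 in WT muscle, 1563 in 3SA muscle, 2091 in WT liver and 2880 in 3SA liver. The small subunit gene Uqcrq ranked 3863, 2721, 4523 and 4455 and was bound at its start in every list.

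The remaining 3 complex III genes were weakly bound. Uqcrb, a ubiquinone-binding subunit, had no peak in WT muscle and ranked 5574 in 3SA muscle, 7108 in WT liver and 12740 in 3SA liver. Uqcrh, the hinge protein, was not named in WT muscle and ranked 32735 in 3SA muscle, 5512 in WT liver and 6623 in 3SA liver. Its start site was not empty in WT muscle: a peak of rank 10219 within 1000 bp of it was annotated to the neighbouring gene Lrrc41. Uqcr11 was not bound in WT liver, ranked 15499 in 3SA liver, and had 3 peaks in WT muscle and 9 in 3SA muscle, the best of which ranked 10219 and 7851. The 3SA muscle list was also the longer one. The WT muscle peaks were centred 3755, 10242 and 11711 bp before the start, and the best 3SA muscle peak 6549 bp before it. In 3SA muscle the peaks centred 586 bp before and 103 bp past the start had scores of 32 and 30, at or near the lowest score.

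Cycs, which encodes somatic cytochrome c, was named in WT muscle (rank 650, centre 41 bp past the start) and in 3SA liver (rank 6515, 26 bp past the start), and in neither of the other lists. In 3SA muscle a peak of rank 1213 lay at the same promoter, chr6:50566173-50567065, but was annotated to the neighbour 5430402O13Rik. It shared 609 bases with the WT muscle peak at chr6:50566086-50566781, and the centres were 186 bp apart. A peak at this promoter was thus present in 3SA muscle under another name. In WT liver no peak centre lay within 20000 bp of the Cycs start. The promoter itself is shown because the peaks of both muscle lists and of 3SA liver overlap it, with a GCATGCGC element of the NRF-1 type in capitals (chr6:50566570-50566819, minus strand, GRCm38.p6, the 250 bases before the RefSeq start).
Cycs promoter: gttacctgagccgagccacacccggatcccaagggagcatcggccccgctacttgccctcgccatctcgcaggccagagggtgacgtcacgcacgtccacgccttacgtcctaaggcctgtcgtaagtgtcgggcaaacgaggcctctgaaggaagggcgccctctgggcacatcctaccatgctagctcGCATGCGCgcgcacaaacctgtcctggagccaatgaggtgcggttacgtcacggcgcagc

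Of the 16 complex IV genes, 13 were bound in WT muscle, 15 in 3SA muscle, 12 in WT liver and 13 in 3SA liver. Cox5a, a structural subunit around the catalytic core, led them at rank 46 in WT muscle, 75 in 3SA muscle, 167 in WT liver and 159 in 3SA liver. Cox7c ranked 478, 696, 368 and 655 in the same order, and Cox8a 296, 307, 757 and 505. Cox5b, Cox6c and Cox4i1 were top-1000 genes in some lists only. Cox5b ranked 486 in WT muscle, 819 in 3SA muscle, 1369 in WT liver and 2061 in 3SA liver. Cox4i1, the ubiquitous isoform of subunit 4, ranked 339, 492, 757 and 1320, and Cox6c ranked 559, 1077, 585 and 1466.

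Cox7a1, the muscle form of subunit 7a, ranked 356 in WT muscle and 246 in 3SA muscle, against 2973 in WT liver and 4744 in 3SA liver. Its partner Cox7a2, the liver form, ranked 9455 in WT muscle, 1608 in 3SA muscle, 2091 in WT liver and 1860 in 3SA liver. Cox7a1 thus ranked ahead of Cox7a2 in both muscle lists and behind it in both liver lists.

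Cox6a1, the liver form of subunit 6a, ranked 633 in WT liver and 826 in 3SA liver, and 2194 and 2721 in WT and 3SA muscle. Cox6a2, the muscle form, had a single peak, in 3SA muscle, of rank 11987 and score 42, centred 300 bp past its start. In muscle itself the muscle isoform of this pair thus ranked behind the liver isoform or had no peak. Cox8b, the muscle form of subunit 8, ranked 1338 in WT muscle and 1608 in 3SA muscle, was not bound in WT liver, and ranked 15499 in 3SA liver at a site 1858 bp before its start. Cox8a ranked ahead of Cox8b in each list that named both.

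Cox4i2, an isoform of subunit 4 known from lung and hypoxia, was bound in 3SA muscle (rank 7851, the best of 4 peaks) and in 3SA liver (rank 28188), and in neither WT list. These peaks lay 15622 and 15516 bp past its start and covered the same ERRE. The 3SA liver peak had a score of 31, near the lowest score of 30. In the WT liver list the nearest peak named Cox4i2 lay 20008 bp from the start, just outside the limit. It was a different site, as no WT liver centre lay closer than 4492 bp to the 3SA liver peak. The farthest peak of these genes inside the limit in the WT liver list lay at 16910 bp (Cox7a2l). Cox6b1 ranked 16894 in WT muscle, 3101 in 3SA muscle, 2403 in WT liver and 5616 in 3SA liver. Cox6b2, the testis isoform of the same subunit, had peaks of its name in muscle only, of rank 2872 in WT and 32824 in 3SA. Cox7b was bound in WT liver only (rank 8204, score 49). Cox7a2l, a supercomplex assembly factor related to subunit 7a, ranked 1161, 1453, 1165 and 3426 in WT muscle, 3SA muscle, WT liver and 3SA liver.

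The catalytic F1 head of the ATP synthase held some of the strongest peaks. Atp5b, the catalytic beta subunit, ranked 53 in WT muscle, 34 in 3SA muscle, 75 in WT liver and 99 in 3SA liver. Its ERRE in intron 1, shown above, lay in the central 300 bp of the peak in all 4 lists. Atp5a1, the alpha subunit, ranked 110, 130, 81 and 93 in the same order. Atp5c1, the gamma subunit that forms the rotor shaft, ranked 114 and 99 in WT and 3SA muscle and 342 and 553 in WT and 3SA liver. Atp5e, the epsilon subunit, ranked 1186 and 649 in muscle and 3500 and 3657 in liver. Atp5d, the delta subunit, ranked 9931 in WT muscle, 2587 in WT liver and 5533 in 3SA liver. In 3SA muscle Atp5d was not named, and no peak centre lay within 1000 bp of its start.

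In the stalk, Atp5o encodes the oligomycin sensitivity protein that ties the head to the stator. It ranked 186 in WT muscle, 262 in 3SA muscle, 387 in WT liver and 335 in 3SA liver. Only in WT muscle was its best peak the one in intron 1. In the other lists the best peak was the upstream one, centred 4720, 4455 and 4228 bp before the start in 3SA muscle, WT liver and 3SA liver, and the intron 1 peak ranked 867, 1225 and 503. The upstream peak of WT muscle, centred 5111 bp before the start, ranked 400. Both ERREs of Atp5o shown above lay within a peak in all 4 lists.

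Atp5j, the coupling factor 6 subunit of the stalk, ranked 194, 310, 563 and 675 in WT muscle, 3SA muscle, WT liver and 3SA liver. Atp5h, subunit d, ranked 1543, 3101, 1969 and 2070, and its best peak in every list but 3SA muscle lay near the end of a transcript, 6694 to 6861 bp past the start. Atp5f1, subunit b, was named in WT muscle only, at the lowest score (rank 16894). A stronger peak within 1000 bp of its start was annotated to the neighbour Wdr77 in each list, with rank 1805 in WT muscle, 7241 in 3SA muscle, 5512 in WT liver and 4514 in 3SA liver.

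The 3 genes of the c-ring encode the same mature subunit. Atp5g3 ranked 95 in WT muscle, 174 in 3SA muscle, 140 in WT liver and 88 in 3SA liver, ahead of both relatives in every list. Atp5g2 ranked 301, 557, 1107 and 557, and Atp5g1 ranked 707, 1233, 1857 and 2874. Among the membrane subunits, Atp5l (subunit g) ranked 339 and 979 in WT and 3SA muscle and 4492 and 2880 in WT and 3SA liver. Atp5j2 (subunit f) ranked 659 and 1011 in muscle and 1536 and 1597 in liver, and Atp5k (subunit e) ranked 2699, 1942, 2765 and 3406 over the 4 lists. Atp5s and Atp5sl, which match by name but are not structural subunits of the enzyme, never ranked better than 6260.

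**Figure D2:**
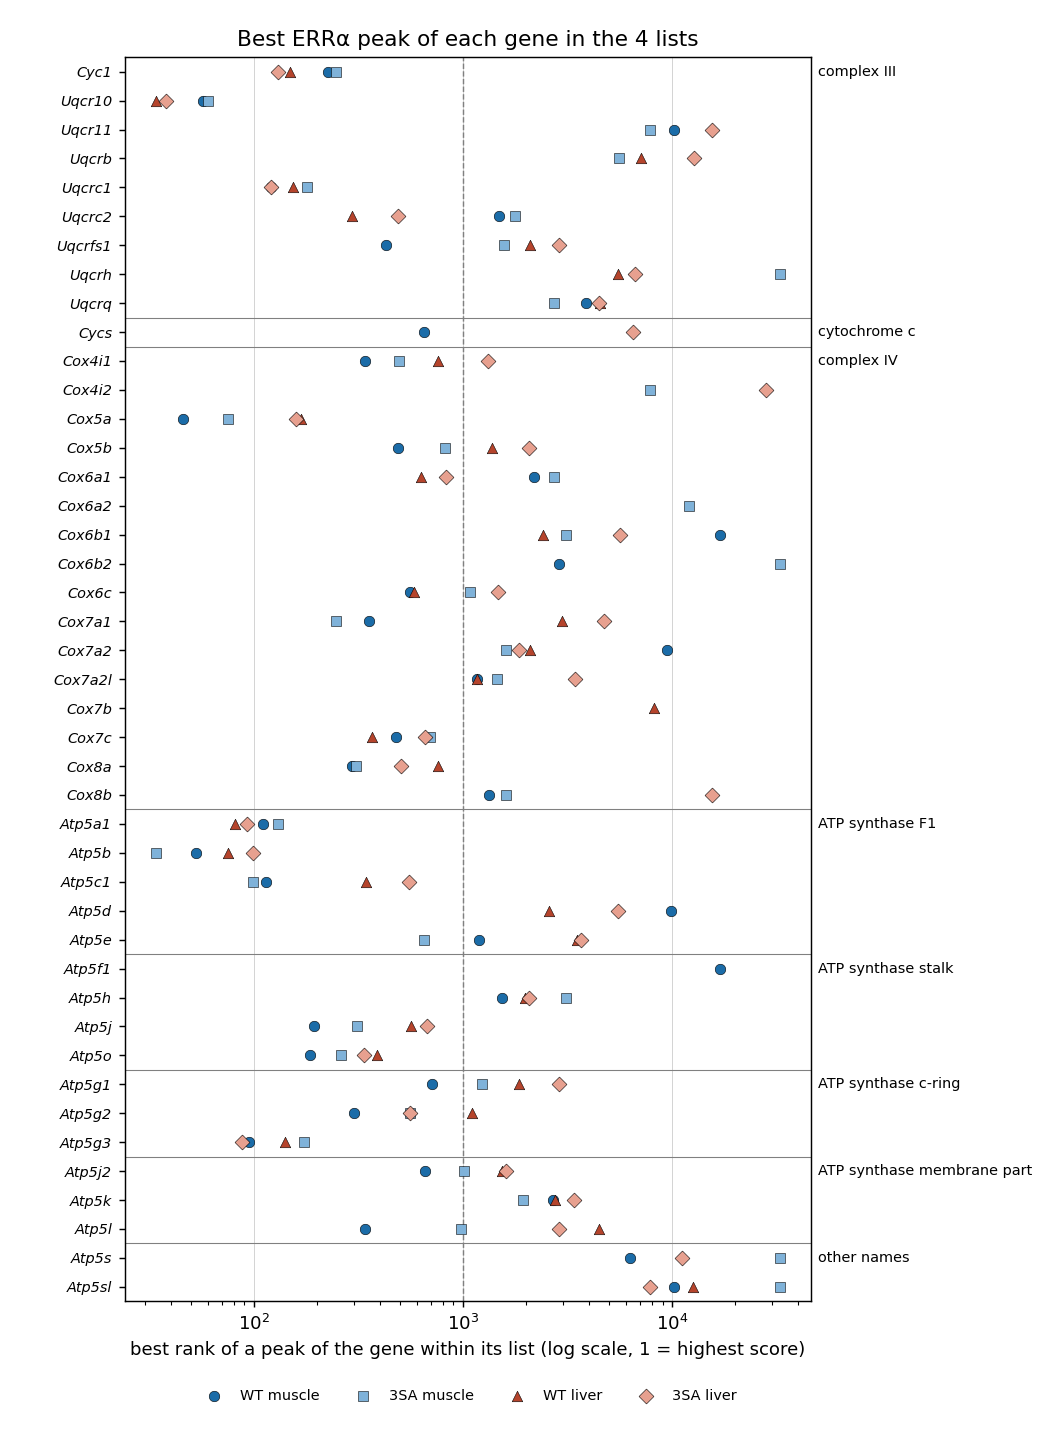
Each point is the best rank of a peak of 1 gene in 1 list (log scale, rank 1 is the highest score), with genes in rows by role and the 4 lists by colour and shape; a missing point means that no peak of that name lay within 20000 bp, and the dashed line marks rank 1000. Points of 12 genes, among them Uqcr10, Atp5b and Cox5a, lie left of the line in all 4 lists.

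Between genotypes, most of these genes had a peak at the same place. A peak was called shared when a peak centre of the other genotype lay within 300 bp. In muscle 29 of the 43 genes had a shared peak (67.4%, 52.5 to 79.5), beside 15.1% of all genes, and in liver 32 had (74.4%, 59.8 to 85.1), beside 25.1%. Of the 34 complex I genes, 20 had a shared peak in muscle and 26 in liver. Counted by peaks, 33 of the 53 peaks in WT muscle had a partner in 3SA muscle (62.3%), beside 23.4% of all WT muscle peaks within 20000 bp. Of the 72 peaks in 3SA muscle 32 had a partner in WT (44.4%), beside 12.9%. In liver 36 of 46 WT peaks (78.3%) and 36 of 54 3SA peaks (66.7%) had one, beside 49.2% and 34.2%.

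In muscle 35 genes were bound in both genotypes, and 6 of them had no shared peak by centres (Atp5g1, Atp5s, Atp5sl, Cox6b2, Cox8b and Uqcr10). Of all genes, 8660 were bound in WT muscle, 2264 of these in WT only, and 2564 had a shared peak, so lacking one was common. For Uqcr10 the WT interval chr11:4703847-4705011 and the 3SA interval chr11:4703034-4704483 shared 637 bases while their centres lay 671 bp apart. The 3SA muscle intervals of Atp5g1 and Cox8b were wide, at 2638 and 3042 bp, against 1232 and 482 bp in WT, and overlapped the WT intervals. By at least 1 shared base, 32 genes had a shared peak in muscle. In liver 34 genes were bound in both genotypes and 2 of them, Atp5g1 and Cox7a1, had no shared peak by centres. For both, the WT liver intervals near the start lay inside a wider 3SA liver interval. By at least 1 shared base, 34 genes had a shared peak in liver. Of all genes, 7515 were bound in WT liver, 1889 of these in WT only, and 4258 had a shared peak by centres.

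Some genes were bound in 1 genotype only. In muscle 3 genes were named in WT only (Atp5d, Atp5f1 and Cycs; 6.98%, 2.40 to 18.6), beside 13.3% of all genes, and 4 in 3SA only (Cox4i2, Cox6a2, Uqcrb and Uqcrh; 9.30%, 3.68 to 21.6), beside 34.1%. In liver 1 gene was named in WT only (Cox7b; 2.33%, 0.412 to 12.1), beside 11.1%, and 5 in 3SA only (Atp5s, Cox4i2, Cox8b, Cycs and Uqcr11; 11.6%, 5.07 to 24.5), beside 22.4%. The share of all genes lay within the interval in 3 of these comparisons and above it for 3SA only in muscle. Of these, Cycs and Atp5f1 in muscle had a peak within 1000 bp of the start in 3SA under a neighbour's name, and Uqcrh had one in WT. Within a tissue the order of the best ranks was alike in both genotypes, with a Spearman rho of 0.95 over the 35 genes bound in both muscle lists and 0.95 over the 34 genes bound in both liver lists. These values describe 2 libraries each, and peaks of both share the same promoters.

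In muscle and not in liver 3 genes were bound by name (Atp5f1, Cox6a2 and Cox6b2), 6.98%, 2.40 to 18.6, beside 33.3% of all genes, and 1 in liver only (Cox7b), 2.33%, 0.412 to 12.1, beside 15.0%. By position, Atp5f1 had a peak named Wdr77 within 1000 bp of its start in WT and 3SA liver (ranks 5512 and 4514). Each liver list also had 2 peaks centred within 20000 bp of a RefSeq start of Cox6b2. The share of peaks with a partner in the other tissue of the same genotype was 56.6% in WT muscle, beside 14.9% of all its peaks, and 52.8% in 3SA muscle, beside 15.4%. In WT liver it was 65.2%, beside 17.3%, and in 3SA liver 72.2%, beside 22.5%. For 24 of the 43 genes (55.8%, 41.1 to 69.6) a peak had partners in all 3 other lists, beside 5.29% of all genes.

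Of the 31 genes bound in all 4 lists, 16 had both muscle ranks better than both liver ranks, beside 26.3% of the 3074 genes bound in all 4 lists. For 5 genes (Atp5a1, Cox6a1, Cyc1, Uqcr10 and Uqcrc2) both liver ranks were better, beside 32.1%. The other 10 overlapped. Because the lists differ in length, the same count was made on the rank as a percent of the list. It gave 20 genes with muscle ahead, beside 34.3% of the same 3074 genes, and 2 with liver ahead, beside 20.9%. Those 2 were Cox6a1 and Uqcrc2, and by percent Atp5a1, Cyc1 and Uqcr10 overlapped between the tissues. Cox7a1, Atp5l, Atp5c1 and Cox5a were among the 16 genes with muscle ahead. Spearman's rho between muscle and liver ranks was 0.76 over 32 genes in WT and 0.82 over 37 genes in 3SA, given as a description.

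**Figure D3:**
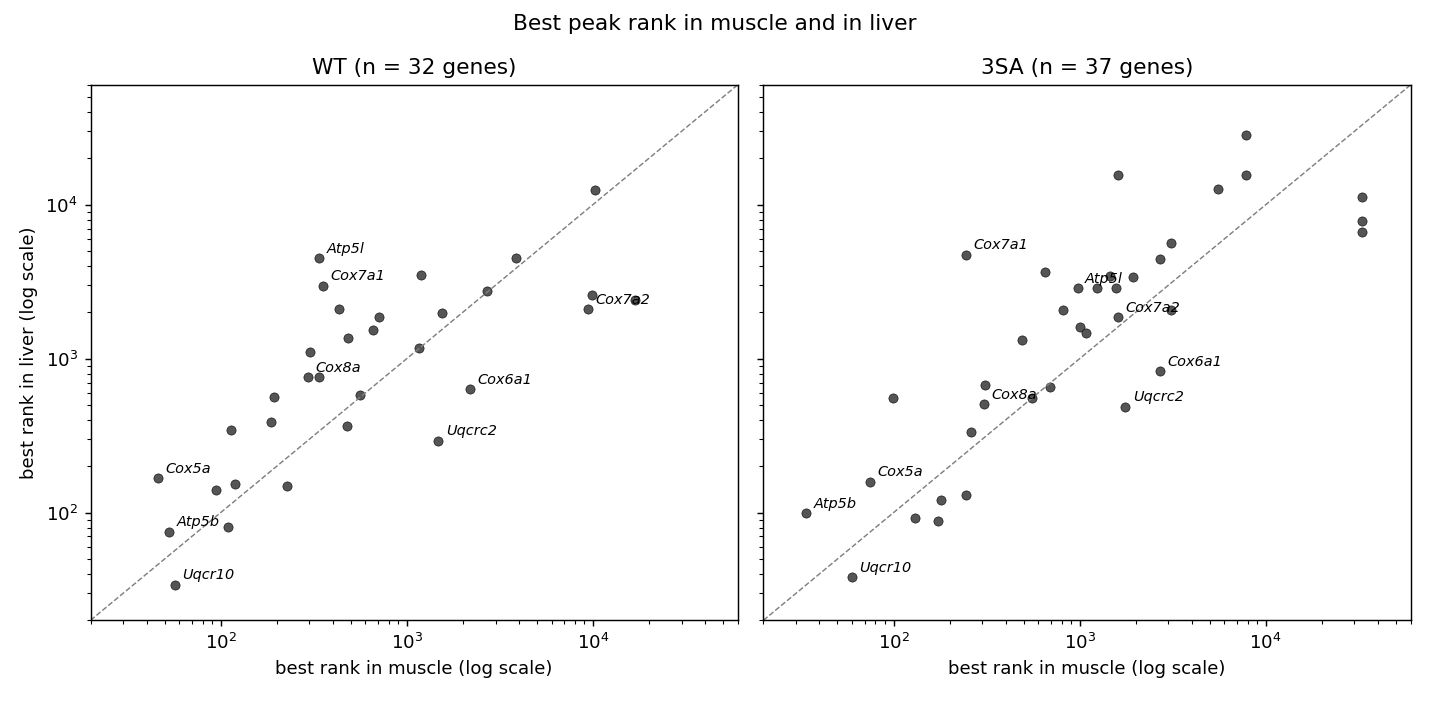
Best rank in muscle (x axis) against best rank in liver (y axis) for the 32 genes bound in both WT lists and the 37 bound in both 3SA lists, both axes on log scales, with the dashed line where the ranks are equal. Cox7a1 lies above the line in both panels (ranked better in muscle), and Uqcrc2 and Cox6a1 lie below it (ranked better in liver).

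The peaks of these genes lay at the start of the gene and mostly just inside it. In WT muscle 35 of 53 peaks were centred within 1000 bp of the start (66.0%), beside 26.2% of all peaks in that list. In 3SA muscle 38 of 72 were (52.8%), beside 17.4%, in WT liver 35 of 46 (76.1%), beside 20.6%, and in 3SA liver 39 of 54 (72.2%), beside 22.6%. Of those near the start, 32 of 35 in WT muscle were centred downstream of it (91.4%, 77.6 to 97.0), beside 70.1% of all such peaks. The counts were 34 of 38 in 3SA muscle (89.5%, 75.9 to 95.8), beside 67.5%, 35 of 35 in WT liver (interval from 90.1%), beside 59.9%, and 37 of 39 in 3SA liver (94.9%, 83.1 to 98.6), beside 60.1%. The best peak of each gene was centred at a median of 280, 298, 319 and 296 bp past the start in WT muscle, 3SA muscle, WT liver and 3SA liver. In each list 22 of these best peaks were annotated as intronic, of 38, 39, 35 and 39 in that order. Among the best peaks of all genes, 3761 of 8660, 5365 of 12182, 3496 of 7515 and 4335 of 9437 were. HOMER named the gene by the nearest start, so upstream peaks between close neighbours can be lost to the neighbour's name, and the part of this in the downstream share was not tested.

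**Figure D4:**
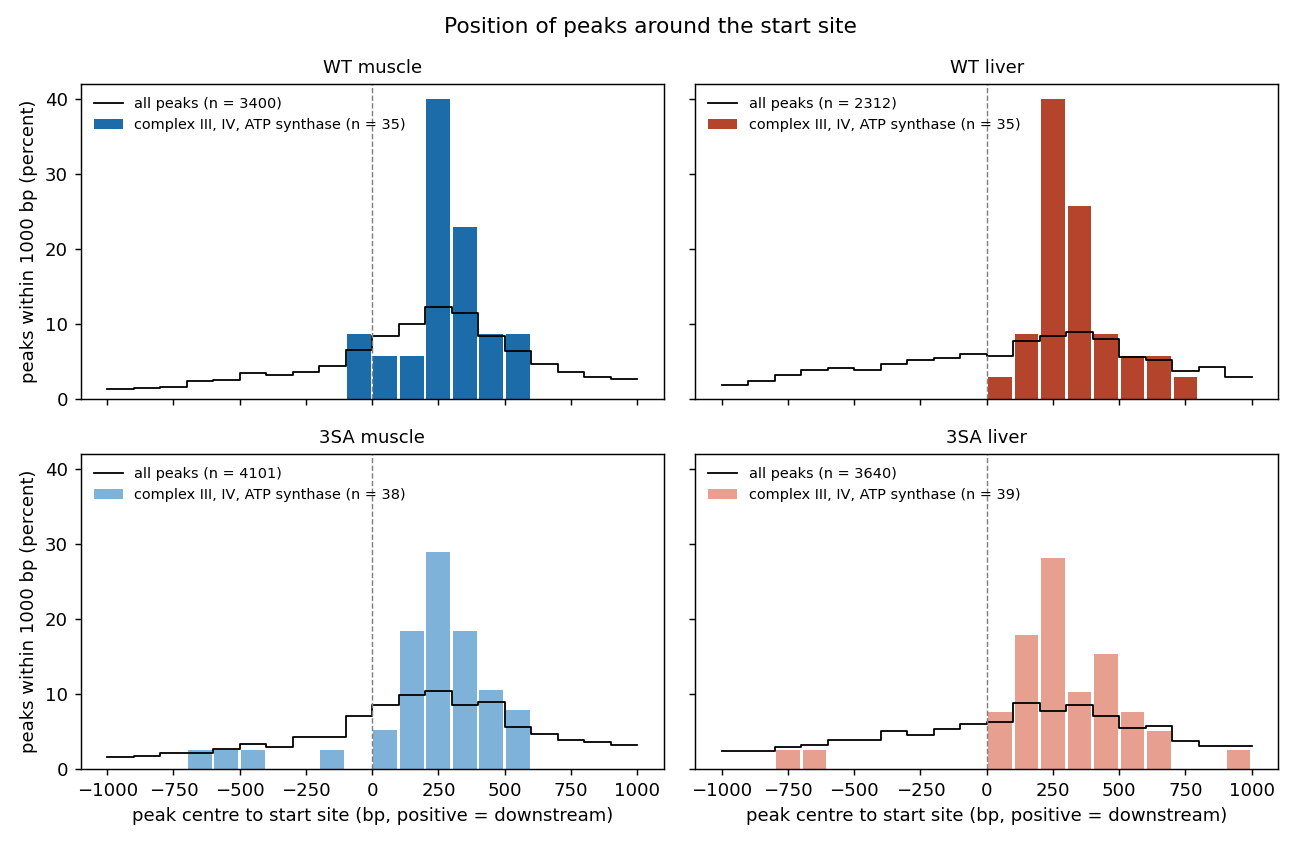
Percent of peaks centred within 1000 bp of the start site in bins of 100 bp (x axis, bp, positive values downstream), for peaks of the complex III, IV and ATP synthase genes (bars) and all peaks of the same list (black line). The bars gather between the start and 600 bp past it, with 91.4% of WT muscle and 100% of WT liver peaks downstream, where the line falls off to both sides.

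Best peaks were chosen by rank, so widths and CpG contents are given for them and for all peaks of these genes. The median width of the best peaks was 832, 824, 816 and 946 bp in WT muscle, 3SA muscle, WT liver and 3SA liver, that of all peaks of these genes 696, 596, 787.5 and 842 bp, and that of all peaks within 20000 bp 470, 461, 461 and 449 bp. The median CpG content of the best peaks was 6.21%, 6.05%, 5.56% and 5.73%, and that of all peaks of these genes 5.28%, 3.32%, 4.97% and 5.50%. Over all peaks within 1000 bp of a start it was 6.21%, 5.05%, 4.54% and 4.74%, and over all peaks within 20000 bp 1.86%, 1.65%, 1.42% and 1.44%.

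An exact ERRE was found in a minority of the peaks. The motif TCAAGGTCA, on either strand, was in the central 300 bp of 3 of 53 peaks in WT muscle (5.66%, interval 1.94 to 15.4), beside 4.45% of all peaks. In 3SA muscle 7 of 72 had it (9.72%, 4.79 to 18.7), beside 4.86%, in WT liver 6 of 46 (13.0%, 6.12 to 25.7), beside 15.2%, and in 3SA liver 10 of 54 (18.5%, 10.4 to 30.8), beside 14.9%. Over all peaks within 20000 bp, the share of the whole list lay within the interval of these genes in each list. Among peaks within 1000 bp of a start, the motif was in 3 of 35 in WT muscle (8.57%, 2.96 to 22.4), beside 2.50% of all such peaks, and in 4 of 38 in 3SA muscle (10.5%, 4.17 to 24.1), beside 3.12%. It was in 4 of 35 in WT liver (11.4%, 4.54 to 25.95), beside 9.60%, and in 6 of 39 in 3SA liver (15.4%, 7.25 to 29.7), beside 7.36%. Near the start, the share of all peaks thus lay below the interval in both muscle lists and within it in both liver lists. These shares rest on 3 to 6 peaks each. The elements of Atp5b, Cox6c and intron 1 of Atp5o were among the hits of all 4 lists, so the lists do not count separate elements. The intervals of these genes overlapped between muscle and liver, and the shares of all peaks were the lower ones in muscle. Searching the whole interval gave 11.3% (5.29 to 22.6) in WT muscle, 15.3% (8.75 to 25.3) in 3SA muscle, 19.6% (10.7 to 33.2) in WT liver and 24.1% (14.6 to 36.95) in 3SA liver, beside 7.44%, 8.27%, 21.4% and 20.4% of all peaks. The looser TNAAGGTCA in the central 300 bp gave the same counts on partly other peaks, with 4 of 6, 8 of 11, 7 of 9 and 11 of 13 in common, beside 6.19%, 6.86%, 20.04% and 19.6% of all peaks. Under both, the share of all peaks lay below the interval in 3SA muscle and within it in the other lists.

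Anywhere in the intervals, 14 exact ERREs were found at 13 genes, 6 of them covered in all 4 lists. These 6 were the 5 sites printed above and 1 in intron 1 of Cox6c, 435 bp past its start. Strong peaks without an exact or TNAAGGTCA match in their central 300 bp in any list included Cox5a, Atp5c1, Cyc1 and Uqcrc1, which says only that these letters are not in those windows. TCAAGGTCA is itself a form of TNAAGGTCA.

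In RefSeq promoter windows (250 bases before to 50 after a start, GRCm38.p6), available for 34 of the 43 genes, the ERRE was in 1 gene, Atp5g3, beside 0.377% of 17492 protein-coding genes. The looser TNAAGGTCA was in the same 1 gene, beside 1.19%. GCATGCGC, a core of the element bound by NRF-1, was in 7 (20.6%, 10.4 to 36.8), beside 3.94%, namely Atp5g2, Atp5k, Atp5l, Cox6a1, Cycs, Uqcr11 and Uqcrc1. CCGGAAGT, an element of the GABP (NRF-2) type, was in 4 genes (11.8%, 4.67 to 26.6), beside 5.69%, and AAGATGGCG, of the YY1 type, in 3 (8.82%, 3.05 to 23.0), beside 2.14%. Both strands were searched, and these 3 motifs do not contain one another or the ERRE. A match is a description of letters and not a bound site.

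Genes that build these complexes without being subunits were bound in part. Of 22 complex IV assembly genes, 19 had a peak within 20000 bp in any list. Of these 19, 11 were bound in WT muscle (57.9%, 36.3 to 76.9), 14 in 3SA muscle (73.7%, 51.2 to 88.2), 14 in WT liver (73.7%) and 17 in 3SA liver (89.5%, 68.6 to 97.1), beside 51.0%, 71.7%, 44.2% and 55.6% of all genes with a peak. The share of all genes lay within the interval in both muscle lists and below it in both liver lists. In the top 1000 there were 4, 3, 3 and 3 of them, beside 3.68%, 3.54%, 3.76% and 3.57% of all genes. Cox20, an assembly factor of subunit 2, ranked 78, 63, 160 and 105 in that order, and Cox11, a copper delivery factor, 600, 347, 112 and 117. Cox18, a membrane insertase, was not bound in muscle and ranked 140 and 184 in WT and 3SA liver. Of 6 complex III assembly genes 4, 5, 4 and 6 were bound, and of 4 ATP synthase assembly and inhibitor genes 3, 2, 3 and 3, with none in the top 1000 of any list. These lists are too short to set against the shares of all genes. The 4 complex II genes, Sdha to Sdhd, were bound in all lists, and Sdhb, the iron-sulfur subunit, ranked 10, 18, 96 and 59.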

How the data were processed

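Per the labels and the study's methods, the authors cleaned the reads with Trimmomatic 0.36, aligned them to the mm10 assembly using BWA 0.7.12, discarded duplicates with Picard 2.0.1, called peaks with MACS2 2.1.1.20160309 against input DNA with a filter on the false discovery rate, and annotated them with HOMER 4.9.1. Only the 4 annotated peak lists were used here. The deposited peak score is a whole number from the peak caller, with a lowest value of 30, and it depends on depth, so only ranks within a list were compared. The deposited CpG and GC contents are each a fraction of the interval, printed here as percent, and the distance to the start site is in bp from the interval centre. The GC content recomputed from GRCm38.p6 equalled the deposited value within 0.05 percentage points in 225 of 225 peaks, with coordinates read from 1.

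Peaks were matched between lists by centres within 300 bp, over whole lists before the 20 kb limit. Motifs were searched in 300 bp around the centre. The overlap, rank and motif steps were tested on simulated data. RefSeq start sites were the 5′ ends of curated transcripts. Python 3.11.15, pandas 2.3.3, pysam 0.24.0 and samtools 1.23.1 were used. The genes and gene lists were chosen with earlier results of these data known. All 43 genes were accounted for by role, with values in full for genes with a top-1000 peak, bound in 1 genotype or 1 tissue only, or in an isoform pair. No test was run, because each group is 1 library. Alternatives were other score, distance, rank, sharing and motif settings.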

Additional observations from a re-analysis of the deposited data

Results flagged for a closer look

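Cycs was the 1 gene whose genotype difference in being named went opposite ways in muscle and liver. In muscle it was named in WT (rank 650) and not in 3SA, and in liver it was named in 3SA (rank 6515) and not in WT. The difference was not tested, since each group is 1 library. In 3SA muscle a peak of rank 1213 overlapped the WT peak at the Cycs promoter under the name 5430402O13Rik, so by position the muscle lists did not differ in this way.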

How the results depend on the processing

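Over 70 alternatives to 14 counts and shares, 68 stayed within 1.5 times the reported count or within the interval of the reported share. With scores of at least 100 the number of bound genes in WT muscle fell from 38 to 23. With the top 500 in place of the top 1000, the genes among the strongest peaks of 3SA liver fell from 15 to 9. Naming genes by any peak within 1000 bp of a RefSeq start, chosen after seeing the data, gave 36, 37, 36 and 38 bound genes in WT muscle, 3SA muscle, WT liver and 3SA liver. Cutting the 3SA muscle list to the length of the WT list left 35 bound genes. Shares of all genes are not given at these settings, so these counts do not show whether the gap to all genes changed. No paired analysis was possible because each group is 1 library and no result comes from a test. Depth is unknown and its effect on these counts could not be measured. At the lowest score of 30 there were 11 peaks of these genes in WT muscle, 19 in 3SA muscle and none in either liver list.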

Other observations

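The interval chr7:30625639-30626218 at the start of Cox6b1 had the same first and last base in the 3SA muscle and 3SA liver lists. It was the only interval that these lists shared exactly, and pairs of lists shared 0 to 2 such intervals over all peaks. In each of these lists it also tied in score with a second Cox6b1 peak, in 3SA muscle at rank 3101 and in 3SA liver at rank 5616.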
